A study of Mus musculus with 6 samples.

Results

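Conventional dendritic cells (cDCs) take up antigen in a tissue and carry it to the draining lymph node, where they prime T cells. The values below describe 10 genes by which these cells are usually recognized, out of 21780 genes in the count table of the study, in CD45+CD11b+ cells of the mouse pancreas. The genes were chosen by symbol: each Ensembl identifier of the table was matched to GENCODE vM21, and all 10 symbols were found once. They fall into 4 roles, with 3 genes of type 1 cells (cDC1: Xcr1, Clec9a and Batf3), 2 genes shared by all cDCs (Flt3 and Zbtb46), 1 gene of type 2 cells (cDC2: Cd209a) and 4 genes of cDCs that have matured and migrate (Ccr7, Fscn1, Ccl22 and Ccl17).

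cDC1 depend on the transcription factors Batf3 and Irf8 and cross-present antigen to CD8 T cells. They carry little or no CD11b. cDC2 depend on Irf4 and, in part, Klf4, carry CD11b and present antigen to CD4 T cells. Both arise from precursors that need the receptor Flt3, and both take on Ccr7, which guides them along a chemokine gradient into lymphatic vessels, when they mature. Several of these genes are not restricted to cDCs: B cells carry Ccr7, plasmacytoid dendritic cells carry Flt3, and some macrophages carry Cd209a and its relatives.

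The mice were wild-type C57BL/6J animals of 6 to 8 weeks, of both sexes, that received a single intraperitoneal injection of 1 mg of whole glucan particles (WGP) or of PBS alone. WGP are particles of β-glucan from the wall of the yeast Saccharomyces cerevisiae and are bound by the receptor Dectin-1. The pancreas was taken 7 days later, cells positive for CD45 (on all leukocytes) and CD11b (on myeloid cells) were sorted, and polyadenylated RNA was sequenced, with 3 libraries of PBS mice and 3 of WGP mice. The study describes its samples as independent animals, the labels do not tie a library to an animal, and the gate leaves out cells without CD11b. The question put to the 10 genes was whether cDC1, cDC2 and migratory genes differed between WGP and PBS mice.

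The libraries held 35334645 to 43341834 counts. Low counts were not spread evenly: the most frequent low count of a library was 18 to 42. A gene with a few such units may rest on few molecules, which was not tested. PBS-1 stood apart from PBS-2 and PBS-3. The summed level of 8 B cell markers was 2663 CPM (counts per 1000000 counts of the library, scaled by the TMM method) there and 665 and 394 in the other two, and neutrophil and NK cell markers were also highest in it. It held no Y-linked counts, as in all 3 WGP libraries, while PBS-2 and PBS-3 did. WGP-2 held 8 fibroblast markers at a summed 1855 CPM, where the other 5 libraries had 40.5 to 190. Where leaving out these libraries changed a direction or a call, the value without them is given here or in the closing section. The genes of the gate were present in every library, Ptprc (CD45) at 949 to 1747 CPM and Itgam (CD11b) at 189 to 418 CPM. Both were higher with WGP, by a log2 fold change of 0.71 (adjusted p = 0.0073) and 0.79 (adjusted p = 0.0062), short of the fold required for a call. With a covariate for Y-linked counts, Itgam was at 1.06 and was called.

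A gene was called where the Benjamini-Hochberg adjusted p of the edgeR quasi-likelihood test, over 14429 protein-coding genes, was at most 0.05 and the absolute log2 fold change at least 1. Of the 10 genes, all of which were tested, 0 were called higher and 1 was called lower in WGP, against 4.53% and 4.96% of all genes tested. Without the fold threshold these counts stayed at 0 and 1, against 7.54% and 6.81% of all genes. At an unadjusted p under 0.05, 3 of the 10 were higher (Clec9a, Fscn1 and Ccl22) and 2 lower (Flt3 and Cd209a), against 12.9% and 13.1% of all genes. The count called higher was 1 by DESeq2 and 0 by limma-voom. The called gene was Cd209a. The levels of the 3 WGP libraries were all above those of the 3 PBS libraries for 2 genes (Clec9a and Ccl22) and all below for 2 (Flt3 and Cd209a), where 16.0% and 16.1% of all genes were so. In the other 6 genes the groups overlapped. The median log2 fold change of the 10 was -0.28, beside -0.05 for all genes tested. In sorted bulk RNA, fewer cells of a type and less RNA per cell cannot be told apart.

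**Figure D1:**
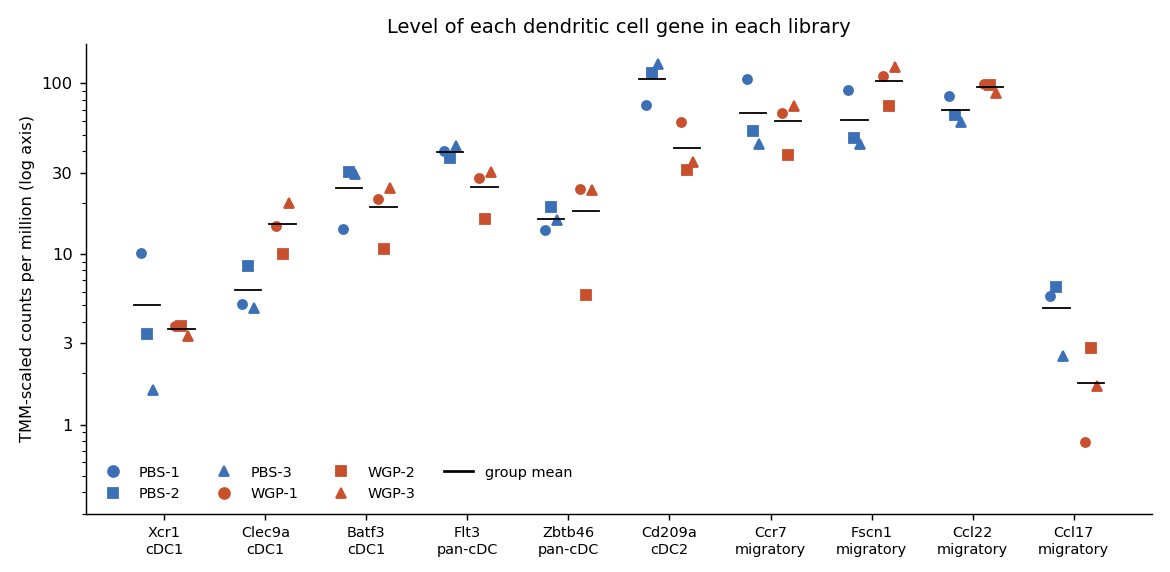
Level of each of the 10 genes in each library, in TMM-scaled CPM on a log axis, with PBS libraries in blue, WGP libraries in red, the replicate number by marker shape and the group mean as a bar. Cd209a and Flt3 lie lower and Clec9a and Ccl22 higher in all 3 WGP libraries, while PBS-1 lies apart for Xcr1, Ccr7 and Fscn1 and WGP-2 for Zbtb46.

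Cd209a, a C-type lectin of the DC-SIGN family and the cDC2 gene of the set, fell. Its gene lies on chr8:3743397-3748984 (GRCm38, minus strand). It was at 74.5, 115 and 129 CPM in PBS-1, PBS-2 and PBS-3 and at 59.2, 31.0 and 34.5 CPM in WGP-1, WGP-2 and WGP-3, so every WGP library was below every PBS library. The log2 fold change was -1.35 (SE 0.28, adjusted p = 0.0085), a level 2.56-fold lower, and leaving out each library in turn gave -1.70 to -1.18 with an adjusted p of at most 0.044. With a covariate for Y-linked counts, which in effect sets the WGP libraries against PBS-1 alone, it was -0.84 (adjusted p = 0.13) and the call was lost. PBS-1 had the lowest Cd209a level of the PBS libraries. A list of 12 resident macrophage markers moved the same way, with a summed level of 18720 to 37910 CPM in PBS, lowest in PBS-1, and 9973 to 13270 CPM in WGP, and 9 of its 12 genes were called lower. The part of these cells in the Cd209a result was not tested.

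Other genes of cDC2 fell with it, while some rose. Of 11 other cDC2 genes, all tested, 4 were called lower and 2 higher, against 4.96% and 4.53% of all genes tested. The list had a median log2 fold change of -0.97. Mgl2, a lectin for N-acetylgalactosamine that marks dermal cDC2 and some macrophages, fell from 645 ± 223 to 60.5 ± 15.6 CPM (mean ± SD, n = 3), by 3.41 on the log2 scale (SE 0.30, adjusted p = 5.9e-05). Irf4, the transcription factor of cDC2 and of alternatively activated macrophages, had 426, 199 and 173 CPM in the PBS libraries and 48.8, 25.8 and 41.2 CPM in the WGP libraries (log2 fold change -2.78, SE 0.36, adjusted p = 0.00055). It was highest in PBS-1, as were 8 B cell markers in sum, at 394 to 2663 CPM in PBS and 93.2 to 186 CPM in WGP. Among PBS libraries, Cd209a and Mgl2 were instead lowest in PBS-1. The part of B cells in the Irf4 values was not tested. Klf4, needed for part of the cDC2 and also active in monocytes, fell from 1183 ± 139 to 258 ± 58.6 CPM, by 2.20 on the log2 scale. Clec10a, named here after its values were seen, is the paralog beside Mgl2 and was also called lower (log2 fold change -2.01), and how reads common to both paralogs were shared was not given, so the values of both are uncertain. The 2 that rose were Sirpa, an inhibitory receptor on cDC2 and on most macrophages, with a log2 fold change of 1.20, and Clec12a, an inhibitory lectin of many myeloid cells, with 1.14. Each of 5 of these genes, Mgl2, Irf4, Klf4, Sirpa and Clec12a, kept its call in all 19 alternative fits.

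Start-site sequences are shown for Cd209a and for Mgl2, as the cDC2 lectins that fell together, and for the neighbouring chemokine genes Ccl22 and Ccl17. The log2 fold changes of Ccl22 (0.46) and Ccl17 (-1.46) differed in sign, but neither gene was called. The sequences come from RefSeq (GRCm38.p6), which held such a window for 9 of the 10 genes (not for Ccr7). They run from 250 bases before to 50 after the annotated start in the direction of the gene. The windows are chr8:3748935-3749234 (minus strand) for Cd209a, chr11:70130107-70130406 (plus) for Mgl2, chr8:94745434-94745733 (plus) for Ccl22 and chr8:94810203-94810502 (plus) for Ccl17. Capitals mark matches, on either strand, to 2 motifs chosen after the expression values were seen: GGAANNGAAA, the composite element at which Irf4 or Irf8 binds with PU.1, and GGGNNNNNCC, a loose form of the NF-κB site.
Cd209a: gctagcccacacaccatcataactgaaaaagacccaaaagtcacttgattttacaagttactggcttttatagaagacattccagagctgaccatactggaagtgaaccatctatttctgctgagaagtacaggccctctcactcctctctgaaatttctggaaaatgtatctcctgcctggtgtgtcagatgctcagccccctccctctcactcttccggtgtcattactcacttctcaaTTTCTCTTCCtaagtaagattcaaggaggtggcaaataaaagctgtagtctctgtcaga
Mgl2: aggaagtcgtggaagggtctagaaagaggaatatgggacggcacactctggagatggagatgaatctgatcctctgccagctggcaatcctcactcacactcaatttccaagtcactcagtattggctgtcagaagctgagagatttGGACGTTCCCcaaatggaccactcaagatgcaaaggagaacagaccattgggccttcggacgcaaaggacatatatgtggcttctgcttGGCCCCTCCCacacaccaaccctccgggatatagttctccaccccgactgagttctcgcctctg
Ccl22: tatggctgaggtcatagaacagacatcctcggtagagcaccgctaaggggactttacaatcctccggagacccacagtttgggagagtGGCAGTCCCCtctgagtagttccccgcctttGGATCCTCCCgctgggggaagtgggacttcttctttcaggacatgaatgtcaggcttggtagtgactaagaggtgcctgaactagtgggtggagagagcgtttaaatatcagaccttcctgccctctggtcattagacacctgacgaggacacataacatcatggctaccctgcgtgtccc
Ccl17: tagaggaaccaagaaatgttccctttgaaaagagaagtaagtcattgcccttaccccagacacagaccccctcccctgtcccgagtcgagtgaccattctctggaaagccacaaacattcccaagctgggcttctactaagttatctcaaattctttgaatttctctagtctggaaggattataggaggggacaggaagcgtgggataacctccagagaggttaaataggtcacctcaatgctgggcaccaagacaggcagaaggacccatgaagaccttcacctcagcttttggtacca
The Cd209a window held 1 match to the composite element, which began 9 bases before the start. It was the only match among the 9 windows of the set, and 2.72% of 32851 RefSeq windows of this length held one. The Mgl2 window held none and had 2 matches to the NF-κB form. The Ccl22 window held 2 matches to that form and the Ccl17 window none, where 50.8% of all windows held at least 1. None of these 4 windows held both motifs, so no matches to the 2 overlapped, and a match of letters does not show a bound site.

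The 3 cDC1 genes did not move together, and none was called. Clec9a, a lectin by which cDC1 take up material of dead cells, was at 5.10, 8.50 and 4.84 CPM in the PBS libraries and at 14.7, 10.03 and 19.96 CPM in the WGP libraries. All WGP libraries lay above all PBS libraries. The log2 fold change was 1.28 (SE 0.40, 95% interval 0.38 to 2.17), with an adjusted p of 0.063. Whether it was called depended on the processing. It was called by DESeq2 (adjusted p = 0.039), without WGP-2 (1.49, adjusted p = 0.035), without both PBS-1 and WGP-2 (1.37, adjusted p = 0.029) and on counts divided by the most frequent low count (adjusted p = 0.042), and over all alternatives its adjusted p ran from 0.029 to 0.24. The gene lies on chr6:129408862-129424763 and shares 184 exonic bases with Clec1b on the same strand, where a read cannot be assigned to a single gene.

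Xcr1, the receptor for the chemokine Xcl1 and the most specific surface marker of cDC1, was at 10.1, 3.41 and 1.59 CPM in PBS and at 3.77, 3.79 and 3.32 CPM in WGP. The PBS libraries surrounded the WGP libraries, which lay close to each other. Its log2 fold change of -0.47 (SE 0.74, 95% interval -2.13 to 1.19, adjusted p = 0.75) turned to 0.53 without PBS-1. The counts were 65 to 387, which is 2.32 to 9.21 times the most frequent low count of the library. Batf3, the transcription factor on which cDC1 depend, had 14.0, 30.1 and 29.4 CPM in PBS and 21.1, 10.7 and 24.4 CPM in WGP. The groups overlapped (log2 fold change -0.39, 95% interval -1.23 to 0.45, adjusted p = 0.56), and PBS-1 and WGP-2 were the lowest of their groups.

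Clec9a and Xcr1 were also compared within libraries. The ratio of their counts, in which the library size cancels, was 0.51 in PBS-1, 2.49 in PBS-2 and 3.05 in PBS-3, and 3.88, 2.65 and 6.01 in WGP-1, WGP-2 and WGP-3. PBS-1 was the sole library with more Xcr1 than Clec9a counts. The groups overlapped in this ratio. They did not in the ratio of Clec9a to Flt3, chosen after the values were seen, which was 0.13, 0.23 and 0.11 in PBS and 0.52, 0.62 and 0.66 in WGP.

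Of 15 other cDC1 genes, 4 were called higher and 1 lower, against 4.53% and 4.96% of all genes tested. The list had a median log2 fold change of -0.04. Naaa, an amidase of lysosomes, rose from 179 ± 19.7 to 452 ± 50.4 CPM (log2 fold change 1.34, SE 0.15, adjusted p = 0.00027). Nfil3, a transcription factor needed for cDC1 and NK cells, rose by 1.41 on the log2 scale (SE 0.30, adjusted p = 0.0097), a call lost with the Y-linked covariate (1.06, adjusted p = 0.14). Cd8a, the CD8α chain of lymphoid-resident cDC1 and of cytotoxic T cells, had 0 counts in all PBS libraries and 61, 122 and 61 counts in WGP. The WGP counts are 2.10 to 3.81 times the most frequent low count, so no fold is given, and its call (adjusted p = 0.039) was lost in 9 of 18 alternatives, among them the fits without PBS-2, PBS-3, WGP-1 or WGP-3, without WGP-2 (adjusted p = 0.13) and without both PBS-1 and WGP-2 (adjusted p = 0.13). It was highest in WGP-2, as was the summed level of 8 T cell markers, at 71.9 CPM there, 19.0 and 25.2 CPM in the other WGP libraries and 39.0 to 42.1 CPM in PBS. Cd4 held most of that sum in PBS-2 and PBS-3, and 5 of the 8 markers had a log2 fold change above 0 (median 0.53). Cd3e, a chain of the T cell receptor complex, named after its values were seen, was at 0, 0.077 and 0.68 CPM in PBS and at 1.33, 8.27 and 1.78 CPM in WGP (adjusted p = 0.18). The part of T cells in the Cd8a values was not tested. Cadm1, an adhesion molecule of cDC1, fell, at 29.4, 36.01 and 31.5 CPM in PBS and 5.75, 4.58 and 6.28 CPM in WGP (log2 fold change -2.55, SE 0.26, adjusted p = 0.00015). Irf8, the transcription factor of cDC1, which monocytes and B cells also use, was at 275, 253 and 200 CPM in PBS and at 401, 563 and 449 CPM in WGP. Its log2 fold change of 0.96 (adjusted p = 0.0052) stayed just short of the fold threshold and was past it without PBS-1 (1.06) and without WGP-1 (1.06).

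The 2 genes of all cDCs gave no call. Flt3, the receptor on which cDC development rests, was at 39.9, 36.7 and 42.9 CPM in PBS and at 28.0, 16.1 and 30.2 CPM in WGP. Every WGP library was below every PBS library, and WGP-2 was the lowest. The log2 fold change was -0.69 (SE 0.25, 95% interval -1.25 to -0.12, adjusted p = 0.11), and it was -0.85 to -0.45 with each library left out in turn. Plasmacytoid dendritic cells also carry Flt3. Their 10 markers summed to 511 to 890 CPM in PBS and 260 to 261 CPM in WGP. Of the 10, 4 were called lower and 0 higher, while 3 had a log2 fold change above 0. Tcf4, their transcription factor, was called lower, from 256 ± 17.1 to 63.9 ± 8.20 CPM. Spib, Ly6d and Siglech, picked out with their values known, were the others called. In PBS, Spib was at 205, 65.7 and 38.3 CPM and Ly6d at 250, 51.1 and 29.6 CPM. Both were highest in PBS-1, as was the B cell sum, while Tcf4 and Siglech were not. The part of B cells in this list, and of plasmacytoid cells in the Flt3 values, was not tested. Zbtb46, a zinc finger factor found in cDCs and their precursors, was at 13.8, 18.8 and 15.8 CPM in PBS and at 24.0, 5.74 and 23.7 CPM in WGP. WGP-2 was far below the other two, and the log2 fold change of 0.14 (SE 0.46, 95% interval -0.89 to 1.17, adjusted p = 0.90) became 0.57 without it (adjusted p = 0.23).

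Of 20 other genes of the core cDC program, 5 were called higher and 1 lower, against 4.53% and 4.96% of all genes tested. The list had a median log2 fold change of 0.21. Fgl2, a prothrombinase and immunoregulatory protein of cDCs and macrophages, rose from 143 ± 14.5 to 734 ± 112 CPM (log2 fold change 2.36, SE 0.17, adjusted p = 1.9e-05). Zfp366, a repressor also known as DC-SCRIPT, rose from 9.08 ± 1.28 to 36.4 ± 11.7 CPM (log2 fold change 2.00, SE 0.29, adjusted p = 0.0010). Kit, the receptor for stem cell factor, rose from 12.0 ± 4.23 to 39.6 ± 7.25 CPM (log2 fold change 1.72), a call lost with the Y-linked covariate (1.28, adjusted p = 0.051). Adam19, a membrane protease, fell by 2.07 on the log2 scale. Of the pair by which the study named cDCs in its single-cell data, Itgax (CD11c) was at 118, 133 and 119 CPM in PBS and at 209, 158 and 188 CPM in WGP, and its log2 fold change of 0.58 (adjusted p = 0.027) was under the fold threshold. Itgae (CD103) was at 4.76, 1.13 and 0 CPM in PBS and at 0.41, 0.92 and 1.22 CPM in WGP, too few counts for a comparison.

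**Figure D2:**
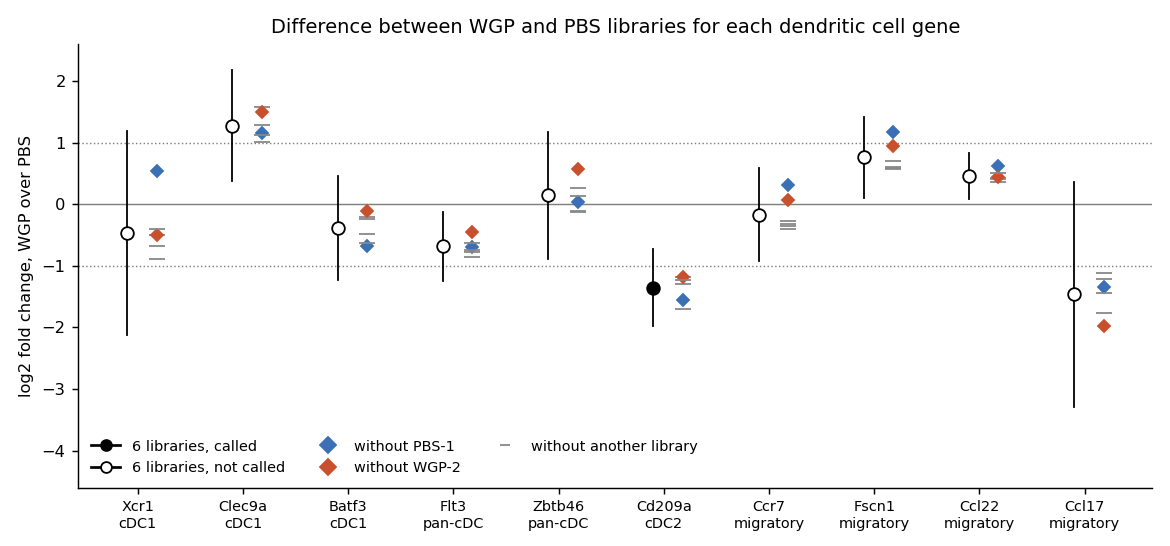
Log2 fold change of WGP over PBS for each of the 10 genes, with its 95% interval over 6 libraries (circles, filled where called) and, to the right, the values with each library left out in turn. Cd209a keeps its direction and its call throughout, while Xcr1 and Ccr7 change sign without PBS-1 and Fscn1 passes a log2 fold change of 1 without it.

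The 4 migratory genes gave no call over the 6 libraries, and they did not share a direction. Fscn1 encodes fascin, the actin-bundling protein of the long extensions of mature cDCs. It was at 91.6, 47.8 and 43.9 CPM in PBS and at 111, 73.8 and 125 CPM in WGP. PBS-1 alone overlapped the WGP libraries. The log2 fold change was 0.76 (SE 0.29, 95% interval 0.11 to 1.41, adjusted p = 0.13). Without PBS-1 it was 1.17 (adjusted p = 0.0061) and Fscn1 was called, and without both PBS-1 and WGP-2 it was 1.36 (adjusted p = 0.00015).

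Ccr7 was at 106, 52.5 and 44.1 CPM in PBS and at 67.0, 38.2 and 74.1 CPM in WGP. PBS-1 had the highest level of all 6 libraries and WGP-2 the lowest. The log2 fold change of -0.17 (SE 0.34, 95% interval -0.93 to 0.58, adjusted p = 0.81) changed sign to 0.30 without PBS-1 and to 0.07 without WGP-2, and reached 0.54 without both (adjusted p = 0.071). Markers of B cells, which carry Ccr7, were highest in PBS-1. The 8 markers summed to 394 to 2663 CPM in PBS and 93.2 to 186 CPM in WGP, 7 of the 8 were called lower, and Cd79a, a chain of the B cell receptor, was at 686, 167 and 92.6 CPM in PBS and at 37.7, 35.4 and 24.0 CPM in WGP. The part of B cells in the Ccr7 values was not tested.

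Within libraries, Fscn1 and Ccr7 kept a narrow ratio in each group. The counts of Fscn1 over Ccr7 were 0.87, 0.91 and 0.995 in the PBS libraries and 1.66, 1.93 and 1.69 in the WGP libraries. PBS-1, although high for both genes, did not stand apart in this ratio, and the highest and lowest library of a group differed by 1.15-fold in PBS and 1.17-fold in WGP. The mean ratio was 1.90-fold higher in WGP. The pair was chosen after the values were seen, as a description. Of the 45 pairs that the 10 genes form, 15 had ratios that did not overlap between groups, and single genes of the whole table did not overlap in 16.0% (WGP above) and 16.1% (WGP below) of cases, so the count shows nothing particular to these pairs.

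**Figure D3:**
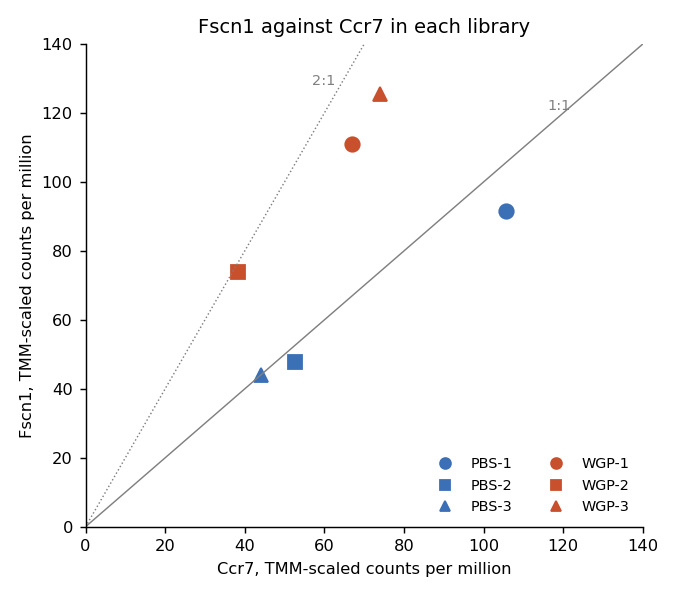
Fscn1 against Ccr7 in each of the 6 libraries, both in TMM-scaled CPM, with lines at a ratio of 1 (solid) and 2 (dotted). The PBS libraries lie along the solid line, PBS-1 included, and the WGP libraries lie between the lines, near the dotted one.

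Ccl22 and Ccl17, ligands of the receptor Ccr4 by which mature cDCs draw T cells, lie 58753 bases apart on chr8 with Cx3cl1 between them. Ccl22 was at 83.7, 65.0 and 59.1 CPM in PBS and at 99.4, 98.3 and 88.2 CPM in WGP. All WGP libraries lay above all PBS libraries, by a small margin. Its log2 fold change of 0.46 (SE 0.17, 95% interval 0.08 to 0.83) had an adjusted p of 0.11, and without PBS-1 it was 0.62 (adjusted p = 0.021), under the fold threshold. Ccl17 was at 5.65, 6.39 and 2.52 CPM in PBS and at 0.79, 2.80 and 1.69 CPM in WGP, and the groups overlapped, WGP-2 lying above PBS-3. Its log2 fold change of -1.46 had a wide error (SE 0.82, 95% interval -3.28 to 0.36, adjusted p = 0.30), and its 29 to 249 counts are 1.61 to 8.30 times the most frequent low count. The ratio of Ccl22 to Ccl17 counts was 14.8, 10.2 and 23.5 in PBS and 126, 35.1 and 52.3 in WGP.

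Of 30 other genes of mature, migratory dendritic cells, 10 were called higher and 1 lower, against 4.53% and 4.96% of all genes tested. The list had a median log2 fold change of 0.89. In it 25 of 30 genes were above 0, where 6752 of the 14429 genes tested were. Many of the 30 are also induced in other myeloid cells on activation. Of 8 markers of Ly6C-high monocytes, 5 were called higher and 1 lower, with a median log2 fold change of 1.92 and a summed level of 2671 to 4232 CPM in PBS and 3865 to 4439 CPM in WGP, and the part of these cells in the migratory list was not tested. Marcksl1, a regulator of actin, rose from 304 ± 35.7 to 874 ± 49.1 CPM (log2 fold change 1.52, SE 0.15, adjusted p = 0.00011). Il15ra, which presents interleukin-15 to T and NK cells, rose from 14.2 ± 4.99 to 73.2 ± 21.0 CPM (log2 fold change 2.36, SE 0.30, adjusted p = 0.00054). Serpinb9, an inhibitor of granzyme B, rose from 13.6 ± 2.08 to 54.7 ± 7.70 CPM (log2 fold change 2.01, SE 0.21, adjusted p = 0.00018). Cd83, a surface protein of mature dendritic cells and of B cells, was the 1 gene called lower. It was at 449, 390 and 410 CPM in PBS and at 287, 147 and 166 CPM in WGP (log2 fold change -1.06, adjusted p = 0.013), and without WGP-2 (-0.88), WGP-3 (-0.94, adjusted p = 0.064) or both PBS-1 and WGP-2 (-0.82) it was not called.

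**Figure D4:**
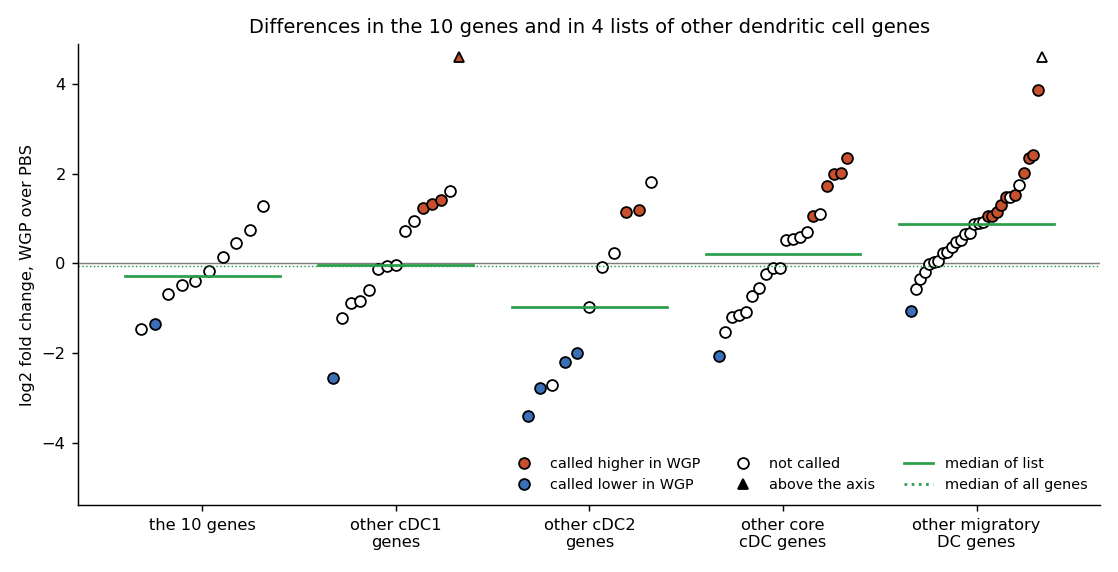
Log2 fold change of WGP over PBS for the 10 genes and for each tested gene of 4 lists of other cDC genes, with genes called higher in red, called lower in blue and not called in white. Green bars are list medians, from -0.97 in the cDC2 list to 0.89 in the migratory list, the dotted line is the median of all genes at -0.05, and triangles stand for 2 genes beyond the axis with no counts in PBS.

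The order of the genes, in CPM per kilobase of exon, differed between groups. In PBS, Cd209a had the highest mean level at 67.0, followed by Ccr7 at 34.1, Ccl22 at 29.8 and Fscn1 at 20.3. In WGP, Ccl22 led at 41.0, followed by Fscn1 at 34.3, Ccr7 at 30.2 and Cd209a at 26.2. Zbtb46, Clec9a and Xcr1 were the 3 lowest in PBS at 1.89, 1.87 and 1.13, and Xcr1 was the lowest in WGP at 0.81, where Clec9a reached 4.52. Among these 4 genes, the range over the 3 libraries of a group overlapped that of the next gene in the order, in PBS and in WGP.

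Between roles, the mean log2 level of the 3 cDC1 genes minus that of Cd209a was -3.06, -3.59 and -4.41 in the PBS libraries and -2.49, -2.07 and -1.55 in the WGP libraries, which did not overlap. The cDC1 genes minus the 2 genes of all cDCs gave -1.39, -1.46 and -2.09 in PBS and -1.30, -0.38 and -1.19 in WGP, just apart. The cDC1 mean joins unlike log2 fold changes, 1.28 for Clec9a, -0.47 for Xcr1 and -0.39 for Batf3. Single genes of the whole table did not overlap in 16.0% (WGP above) and 16.1% (WGP below) of cases. A lack of overlap thus shows nothing particular to the roles. Cd209a minus the 2 genes of all cDCs gave 1.67, 2.13 and 2.31 in PBS and 1.19, 1.69 and 0.37 in WGP, with overlap. The migratory genes minus Cd209a gave -0.69, -1.84 and -2.48 in PBS and -1.10, -0.061 and -0.0071 in WGP, also with overlap, PBS-1 being the highest of its group. The migratory genes minus the cDC1 genes gave 2.37, 1.74 and 1.93 in PBS and 1.39, 2.01 and 1.55 in WGP, with overlap. The migratory genes minus the 2 genes of all cDCs overlapped as well, at 0.98, 0.28 and -0.17 in PBS and 0.09, 1.63 and 0.36 in WGP, where PBS-1 and WGP-2 were the highest of their groups.

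Ligands and partners of the 10 genes were tested in 9 of 11 cases, and 2 were called, both higher. Batf2, a relative that can stand in for Batf3, rose from 9.17 ± 0.81 to 110 ± 49.5 CPM (log2 fold change 3.58, SE 0.30, adjusted p = 4.7e-05). Csf2rb, the shared signalling chain of the GM-CSF receptor, rose from 215 ± 11.1 to 1083 ± 102 CPM (log2 fold change 2.33, SE 0.15, adjusted p = 1.2e-05). Its partner chain Csf2ra had 0.64 (adjusted p = 0.036), under the fold threshold, and Batf, a further member of the family, 0.74 (adjusted p = 0.060). Flt3l, the ligand of Flt3, was at 19.1 ± 2.10 CPM in PBS and 16.2 ± 3.25 CPM in WGP (adjusted p = 0.63). Xcl1, the ligand of Xcr1, was at 5.63 ± 3.82 and 2.48 ± 1.36 CPM (adjusted p = 0.40), and Zeb2, a factor of cDC2 and monocytes, at 793 ± 140 and 764 ± 83.4 CPM (adjusted p = 0.90). Of the ligands of Ccr7, Ccl21a had 0 counts in each library and Ccl19 had 21 counts in PBS-3 alone. Csf2 had 57 counts in PBS-1 and 16 in WGP-1 and none elsewhere, and Ccr4 had 9 counts in WGP-2 alone.

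By Pearson correlation over the 6 libraries, on the log2(CPM + 1) scale, genes among the most like the mean of Xcr1 and Clec9a were Ermp1 (r = 0.994) and Asprv1 (0.982). Those most like the mean of the 4 migratory genes were Med12l (0.986), Plpp5 (0.981) and Rdh11 (0.981). With 6 libraries and 14429 genes such values are a description only.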

How the data were processed

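CD45+CD11b+ pancreatic cells of 3 PBS and 3 WGP samples were compared. Per the methods and the processing notes, the authors aligned single reads of 75 bases to mm10 (GRCm38.p6) with STAR 2.6, counted them per gene with HTSeq 0.10.0 and deposited raw counts. The strand setting and the treatment of reads that match several genes were not given in the sources used here. No molecular identifiers are named, so counts may include amplified copies. Gene symbols, coordinates and exon lengths were taken from GENCODE vM21.

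From the deposited counts, CPM were computed on TMM-scaled library sizes (factors 0.957 to 1.09). Protein-coding genes with at least 10 summed normalized counts were tested with edgeR 4.0.16 (R 4.3.3, glmQLFit and glmQLFTest, 2-sided) over all 6 libraries, with Benjamini-Hochberg adjustment over all 14429 genes. The SE was derived from the F statistic, and 95% intervals are unadjusted. p-values measure the spread between these samples. An exact permutation test of 3 against 3 could not go below p = 0.1 and was not used for single genes. Alternatives used DESeq2 1.42.0, limma-voom (limma 3.58.1), other scalings, filters and thresholds, a replicate block, a covariate for Y-linked counts and each library left out. The fit was tested on simulated data. Files of the study other than these counts were not used here.

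The 10 genes and all lists were chosen with earlier results of these data known. Genes outside the 10 were named by rule: in each list of cDC genes the called genes with the smallest p, up to 3 in each direction, plus Itgax, Itgae, Irf8 and Irf4, all tested partners, the gate genes and, of each other cell type, the marker with the highest mean CPM over all 6 libraries, here called the most abundant. No 2 libraries were copies of each other. Of the genes most alike in pattern, the 3 with the highest correlation were taken for each mean, and 1 of them is not reported here.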

Additional observations from a re-analysis of the deposited data

How the results depend on the processing

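Over the 10 dendritic cell genes, 173 of 190 alternative values kept their direction and their side of the threshold, and over all 50 named genes 886 of 942 did. Where a value turned or a call was lost or gained, the cause was not tested. The setting without both PBS-1 and WGP-2 and the setting with counts divided by the most frequent low count were chosen after seeing the data.

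The count of the 10 genes called higher was 0 and became 1 with DESeq2 (Clec9a) and with the divided counts (Clec9a), 2 without both libraries (Clec9a and Fscn1), and 0 to 1 with each library left out (Fscn1 without PBS-1, Clec9a without WGP-2). The count called lower was 1 (Cd209a) and became 0 with the Y-linked covariate and where the log2 fold change had to reach 2 in size. With that stricter fold, the counts called were 1 higher among other cDC1 genes, 0 higher among other cDC2 genes, 3 higher among other core cDC genes, and 4 higher and 0 lower among other migratory genes. With the adjusted p alone, 3 other cDC1 genes were called lower. With the Y-linked covariate, 2 other cDC1 genes were called higher and 3 lower, and 2 other core cDC genes higher and 5 lower. Without both PBS-1 and WGP-2, 2 other cDC1 genes and 0 other migratory genes were called lower. Of the other core cDC genes, 3 were called higher with library totals as the only scaling, and those called lower became 2 with these totals, with upper-quartile scaling and with a filter of at least 1 count in any library, and 4 with DESeq2 and with the divided counts. With each library left out in turn, 2 to 5 other cDC1 genes were called higher and 1 to 2 lower, 3 to 6 other core cDC genes higher and 1 to 4 lower, and 0 to 1 other migratory genes lower.

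Log2 fold changes that changed sign, none of them called with all 6 libraries, ran over the fits with each library left out from -0.89 to 0.53 for Xcr1, -0.13 to 0.57 for Zbtb46, -0.40 to 0.30 for Ccr7, -1.79 to 0.58 for Itgae, -7.32 to 5.55 for Csf2, -0.19 to 0.048 for Zeb2 (0.034 without WGP-2) and -1.52 to 3.10 for Col3a1. Without both libraries they were 0.50 for Xcr1, 0.54 for Ccr7, 0.52 for Itgae, 6.11 for Csf2 and -1.03 for Col3a1. Col3a1 was then called lower (adjusted p = 0.038), as it was without WGP-2 (-1.52, adjusted p = 0.043). With the Y-linked covariate Batf3 was at 0.42 and Zeb2 at 0.27, and with limma-voom Zbtb46 was at -0.14 and Itgae at 0.99.

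Deviations of same-numbered PBS and WGP libraries had correlations of 0.04, -0.07 and 0.06, and those of differently numbered libraries -0.086 to 0.054. With 3 libraries a group, such values cannot tell whether same-numbered libraries shared a preparation. With the replicate number as a block, 0 of the 10 genes were called higher and 1 lower, Zbtb46 was at -0.064, Itgae at 0.077 and Col3a1 at -0.24, and 2 other core cDC genes were called lower. Over all genes, library totals as the only scaling moved the share of calls that were higher from 47.7% to 40.2%. The lowest counts, as multiples of the most frequent low count, were those of Ccl19, Csf2, Cd8a, Itgae, Ccl17, Xcl1 and Xcr1 among the genes tested and named by rule, and how far depth or the spread between libraries widened their errors was not tested.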

Other observations

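The marker lists of other cell types, beyond those given beside the results, had these values, with no marker at 0 in all 6 libraries. Of 8 Ly6C-high monocyte markers, 5 were called higher and 1 lower, and 7 of the 8 had a log2 fold change above 0, with a median of 1.92. Among them, and named after their values were seen, Ly6c2 was at 2.85, Ccr2, the receptor for Ccl2, at 1.98, Plac8 at 2.09 and Vcan, a proteoglycan, at 3.89. The list had a summed level of 2671 to 4232 CPM in PBS and 3865 to 4439 CPM in WGP. The most abundant of them over all 6 libraries, though not in WGP, F13a1, a transglutaminase of monocytes and macrophages, was the 1 called lower, from 2513 ± 1085 to 424 ± 78.0 CPM (SD, n = 3). Apoe, the most abundant resident macrophage marker and a lipid carrier, fell from 11436 ± 3669 to 4603 ± 997 CPM (log2 fold change -1.31), a call lost with the Y-linked covariate (-0.66, adjusted p = 0.085). Neutrophil markers summed to 2232 to 5729 CPM in PBS and 2454 to 2514 CPM in WGP, and 7 of the 8 had a log2 fold change below 0. S100a9, an alarmin and the most abundant of them over all 6 libraries (Csf3r was higher in WGP), was at 1583, 742 and 394 CPM in PBS and at 499, 575 and 518 CPM in WGP (log2 fold change -0.77, adjusted p = 0.25). It was at -0.10 without PBS-1, and it was called lower without PBS-3 (-1.13, adjusted p = 0.026) and with the Y-linked covariate (-1.58, adjusted p = 0.0054). Of the other neutrophil markers, named after their values were seen, Mmp9 was called lower (-1.41) and Csf3r was at 0.81 (adjusted p = 0.0092), under the fold threshold. NK cell markers summed to 60.5 to 229 CPM in PBS and 89.0 to 103 CPM in WGP, and of the 8 markers 1 was called higher and 1 lower. Klrk1, the receptor NKG2D, named after its values were seen, was the 1 called higher (log2 fold change 1.44, adjusted p = 0.0063), and Gzma, a granzyme, was the 1 called lower (log2 fold change -1.81). Without WGP-1 (-1.74), WGP-3 (-1.81) or PBS-2 (-1.86), and by limma-voom (-1.54, adjusted p = 0.095), Gzma was not called. Endothelial markers summed to 40.6 to 130 CPM in PBS and 140 to 161 CPM in WGP, but the 8 markers went both ways, 4 with a log2 fold change above 0 and 4 below, and the 2 called, Flt1 and Kdr, were both higher. Flt1, a receptor for VEGF and the most abundant of them over all 6 libraries (Pecam1 was higher in PBS), was at 89.8 ± 8.74 CPM in WGP and 11.5 ± 4.04 CPM in PBS. Pecam1 (-1.32) and Cdh5 (-1.21), like Kdr named after their values were seen, were not called. Of T cell markers, Cd4 was the most abundant at 24.3 ± 5.29 CPM in PBS and 11.5 ± 5.32 CPM in WGP and was not called (log2 fold change -1.08, adjusted p = 0.097). It was called lower without both PBS-1 and WGP-2 (-1.52, adjusted p = 0.018), with the replicate block (-1.19, adjusted p = 0.035) and on counts divided by the most frequent low count (-1.16, adjusted p = 0.030). Col3a1, the most abundant fibroblast marker, was at 787 CPM in WGP-2 and at 11.8 to 74.3 CPM in the other 5 libraries.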
